A study of Homo sapiens with 6 samples.

Results

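The genes described here are the 10 that build, recycle and spend glutathione: GCLC, GCLM, GSS, SLC7A11, SLC3A2, GSR, GPX1, GPX4, GPX2 and GGT7. They were chosen by name, and all 10 were found by symbol among the 60709 genes with values in the deposited count table. The study asked what SH-SY5Y cells, a widely used line derived from a human neuroblastoma, do in response to a fumarate joined to a peptide named after the transcription factor NRF2. The labels list 3 control wells given 10 uL of DMSO and 3 wells given the Nrf2-peptide-linked fumarate in water plus 10 uL of DMSO. All wells held 2 mL of medium, had reached 80% confluence, and were lysed after 5 h. For the peptide, 2 mg was taken up in 600 uL of water and 200 uL was added per well, while no addition of water to the control wells is described.

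Values below come from the 3 control libraries only. The columns headed Sample 4, 5 and 6 carry the same headings as the labels of control replicates 1, 2 and 3, whereas the peptide-treated samples are labelled 13, 14 and 15, numbers that no column bears. No treated library was therefore analysed here, and no response to the peptide is reported. The assignment rests on these headings, and if the table used a numbering of its own, they could belong to the peptide-treated group. The labels do not say whether the wells of a group were separate cultures, so the spread given is that between these libraries.

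Glutathione is a tripeptide of glutamate, cysteine and glycine, and is the main small thiol of the cell. Cystine enters through a carrier made of SLC7A11 and SLC3A2, glutamate and cysteine are joined by the ligase of GCLC and GCLM, and glycine is added by GSS. Glutathione peroxidases oxidise glutathione to reduce peroxides, and GSR reduces it again with NADPH. Several of these genes are textbook targets of NRF2, which binds antioxidant response elements in DNA.

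Library totals ranged from 8887854 to 11397407 counts, and the 10 genes together took 0.0886% to 0.0932% of them. Of 7 markers of noradrenergic neuroblastoma, 6 had at least 10 counts in every library, with a summed level of 2232 to 2547 CPM (counts per 1000000 of the library total after TMM scaling). DBH had a mean of 799 CPM, but TH was listed at 0 counts in each library. Of 6 mesenchymal or fibroblast markers 4 reached 10 counts, summing to 348 to 393 CPM, of which COL3A1 gave a mean of 316 CPM. In bulk libraries, few cells with a marker and a low level in every cell cannot be told apart. The 4 immune markers reached at most 0.113 CPM in sum, the 4 epithelial ones 2.63 CPM and the 3 glial ones 1.68 CPM. How reads of overlapping genes were counted is not given in the sources used here, so the 0 of TH and the at most 1 count of the immune marker CD68 are uncertain. Replicate 3 stood apart in its share of mitochondrially encoded counts, 6.25% against 4.11% and 3.83% in replicates 1 and 2.

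Short stretches of DNA that hold the core of the antioxidant response element are shown first, because they mark which of the 10 genes carry it next to their start. The core was searched as TGACNNNGC on both strands in the RefSeq promoter table (GRCh38.p14, 250 bases before to 50 after each start). That table gave 11 promoters for 7 of the genes, and held none for GSS, SLC7A11 and GSR. The core was present in 1 promoter each of GCLM, SLC3A2 and GPX2, and these letters were not in the windows of GCLC, GPX1, GPX4 and GGT7. Among all 35116 promoters in the table, 13.3% held it, beside 3 of the 11 here. Counted by gene, 16.1% of 27305 held it in at least 1 promoter, beside 3 of the 7 here. These shares were not tested against each other. A match is a description of the sequence and not evidence of binding. In the stretches below, written on the gene's own strand, capitals mark the core. It reads TGACTAAGC in GCLM and TGACTTAGC in GPX2, both on the opposite strand, and TGACTCAGC in SLC3A2.
GCLM, chr1:93909446-93909474, minus strand: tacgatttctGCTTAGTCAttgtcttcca
SLC3A2, chr11:62881652-62881680, plus strand: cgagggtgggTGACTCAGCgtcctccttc
GPX2, chr14:64942849-64942877, minus strand: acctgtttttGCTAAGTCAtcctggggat
The core lay 34 to 26 bases before the start in GCLM, 37 to 29 bases before it in SLC3A2 and 122 to 114 bases before it in GPX2. The levels of these 3 genes, given below, spread over most of the range of the 10: no library held more than 3 counts of GPX2 or fewer than 1311 of SLC3A2.

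A second set of sequences shows what the peroxidases share. Of the 8 human glutathione peroxidase genes, 5 have a selenocysteine codon in GENCODE release 29, and GPX1, GPX2 and GPX4 are among them. Selenocysteine is the catalytic residue of these enzymes and is written as TGA, otherwise a stop codon. The codon, in capitals, is shown with 30 coding bases on each side.
GPX1, codon at chr3:49358132-49358134, minus strand: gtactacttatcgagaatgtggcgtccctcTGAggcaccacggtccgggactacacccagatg
GPX2, codon at chr14:64942607-64942609, minus strand: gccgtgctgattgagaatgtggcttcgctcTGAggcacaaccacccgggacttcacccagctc
GPX4, codon at chr19:1105403-1105405, plus strand: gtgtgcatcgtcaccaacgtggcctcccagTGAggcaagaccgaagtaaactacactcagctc
It is codon 49 of 203 in the GPX1 transcript, 40 of 190 in that of GPX2 and 73 of 197 in that of GPX4. Over the 63 bases, GPX1 and GPX2 were identical at 48, GPX1 and GPX4 at 37, and GPX2 and GPX4 at 35. GPX2, whose sequence here is nearest to that of GPX1, differed from both others in its level, as described below.

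Both subunits of glutamate-cysteine ligase, the rate-limiting enzyme of glutathione synthesis, were well above the counting limit in every library. GCLC (ENSG00000001084.13, chr6:53497341-53616970, minus strand, 16 exons in its longest coding transcript, positions here and below on GRCh38 from GENCODE release 29) encodes the catalytic subunit. It had 727, 746 and 644 counts in replicates 1, 2 and 3, which is 68.0, 65.3 and 72.7 CPM. GCLM (ENSG00000023909.10, chr1:93885205-93909456, minus strand, 7 exons) encodes the modifier subunit, which raises the activity of the catalytic one. It had 605, 688 and 640 counts, or 56.6, 60.2 and 72.3 CPM. Both subunits were highest in replicate 3, GCLM by the wider margin.

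Per kb of the longest protein-coding transcript, GCLC stood at 18.0 ± 0.988 CPM per kb and GCLM at 13.0 ± 1.69 (SD, n = 3). This scale is used for comparisons between genes unless counts, CPM or another length are named. The lowest GCLC value, 17.1, lay above the highest GCLM value, 14.9. The ratio of GCLC to GCLM on this scale was 1.53, 1.38 and 1.28 in the 3 libraries. This order turned with the length chosen: over the union of all annotated exons, GCLM had 11.6 and GCLC 7.94 CPM per kb, since the exons of GCLC cover 8646 bases against 3813 in its longest coding transcript. GSS (ENSG00000100983.12, chr20:34928433-34956027, minus strand, 13 exons), the ligase that adds glycine, had 744, 775 and 561 counts. Its values of 69.6, 67.8 and 63.4 CPM lay close together, with a coefficient of variation of 4.79% against 3.84% from counting error alone.

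The 2 chains of the cystine carrier were far apart. SLC7A11 (ENSG00000151012.13, chr4:138164097-138242349, minus strand, 12 exons) is the transport chain that takes up cystine in exchange for glutamate. It had only 83, 113 and 103 counts, which is 7.76, 9.89 and 11.6 CPM. Its partner SLC3A2 (ENSG00000168003.18, chr11:62856102-62888875, plus strand, 12 exons) is the heavy chain that several amino acid carriers share. It had 1658, 1868 and 1311 counts, or 155, 163 and 148 CPM. Per kb, SLC3A2 stood at 70.0 ± 3.48 and SLC7A11 at 1.01 ± 0.201 CPM per kb, and every SLC3A2 value lay above every SLC7A11 value. The ratio of SLC3A2 to SLC7A11 was 86.7, 71.8 and 55.2 in replicates 1, 2 and 3. With the union of exons as length the gap was smaller, 30.03 CPM per kb for SLC3A2 against 1.01 for SLC7A11. SLC7A11 ranked at percentile 7.58 of the 12388 protein-coding genes that reached 10 counts in each of the libraries, and SLC3A2 at percentile 93.7. An antisense gene, SLC7A11-AS1, shares 865 exonic bases with SLC7A11 and had 0, 2 and 0 counts.

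GSR (ENSG00000104687.14, 13 exons), the reductase that returns oxidised glutathione to its reduced form, was among the more abundant members. It had 1874, 1854 and 1486 counts, which is 175, 162 and 168 CPM. Its coefficient of variation of 3.87% was the lowest of the 10, against 2.41% from counting error alone. Per kb it reached 52.8 ± 2.04 CPM per kb, at percentile 90.7 of the protein-coding genes.

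The peroxidases covered the whole range of the 10 genes. GPX4 (ENSG00000167468.18, chr19:1103926-1106791, plus strand, 8 exons) reduces lipid peroxides in membranes and protects cells from ferroptosis. It had 2113, 2162 and 1611 counts, or 198, 189 and 182 CPM, and per kb it was the highest of the 10, at 189 ± 7.82 CPM per kb and percentile 98.3. GPX1 (ENSG00000233276.8, chr3:49357171-49358600, minus strand, 2 exons) is the widespread cytosolic enzyme that reduces hydrogen peroxide. Its 1562, 1551 and 1117 counts gave 146, 136 and 126 CPM, and 118 ± 8.66 CPM per kb at percentile 96.9. GENCODE release 29 types this gene as a polymorphic pseudogene with protein-coding transcripts. Its processed copies GPX1P1 and GPX1P2 had at most 1 count in any library.

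GPX4 exceeded GPX1 by a factor of 1.60 per kb, and their ranges did not overlap. Over the union of exons, however, GPX1 had 95.1 and GPX4 93.9 CPM per kb, so which of them is higher depends on the length taken for GPX4 (1002 bases in its longest coding transcript, 2019 over all exons). GPX2 (ENSG00000176153.12, chr14:64939152-64942905, minus strand, 3 exons), the peroxidase typical of gut epithelium, had 2, 3 and 2 counts. The limit that an empty row would set, 3 counts, corresponds to 0.263 to 0.339 CPM in these libraries. GPX2 was at or under it in each of them, and no fold is given for it.

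GGT7 (ENSG00000131067.17, chr20:34844720-34872860, minus strand, 15 exons) belongs to the gamma-glutamyltransferase family, whose classical members cleave glutathione outside the cell. It had 592, 622 and 396 counts, or 55.4, 54.4 and 44.7 CPM. Replicate 3 lay below both other libraries, which nearly coincided. Per kb the level was 19.5 ± 2.23 CPM per kb.

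**Figure D1:**
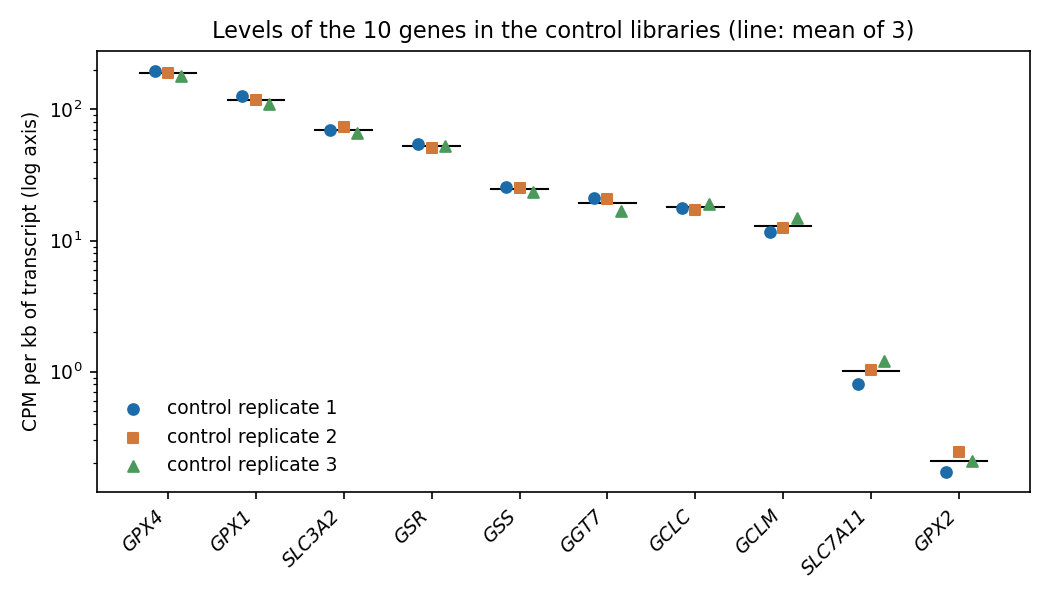
Level of each of the 10 genes in CPM per kb of its longest protein-coding transcript (log axis), 1 symbol per control library and a line at the mean of 3. The genes run from GPX4 at 189 to GPX2 at 0.208 CPM per kb, with a step of 12.8-fold between GCLM and SLC7A11 on this length.

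Set in order by level per kb, the genes ran GPX4, GPX1, SLC3A2, GSR, GSS, GGT7, GCLC, GCLM, SLC7A11 and GPX2. Of the 9 pairs of neighbours in this order, 8 had ranges over the 3 libraries that did not overlap. The exception was GGT7 and GCLC, with means of 19.5 and 18.0 CPM per kb. SLC7A11 and GPX2 are among the 8, though GPX2 was at or under the count limit. With the union of exons as length the order differed, and 7 pairs had ranges that did not overlap. These ranges do not include the choice of length. The largest step between genes above the count limit separated GCLM from SLC7A11, a factor of 12.8. Over the union of exons the gene next above SLC7A11 was GCLC, and the step was 7.85. The median of the 10 genes was 22.1 CPM per kb, against 10.4 over the 12388 protein-coding genes tested. GPX4, GPX1, SLC3A2 and GSR held the first 4 places, and SLC7A11 and GPX2 the last 2, under each of the 3 lengths tried. The length of SLC7A11 was 9645 bases under all 3, so its own value did not vary with this choice. In CPM, without length, SLC7A11 had a mean of 9.76, and the gene next above it was GGT7 at 51.5. The longest transcript of any type differed from the longest coding one only for GPX4, GSS and GPX2. Over the union of exons GPX1 came before GPX4, GSR before SLC3A2, and the 4 genes between ran GGT7, GCLM, GSS and GCLC.

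The next question was whether a gene differed between the control libraries by more than counting error. Counts were compared with those expected at equal CPM by a chi-square test, adjusted by Benjamini-Hochberg over all genes that reached 10 counts in each of the libraries. Of the 9 genes tested (GPX2 was not), 3 were called at an adjusted p under 0.05, where 27.2% of all 13920 genes tested were called. The share among the glutathione genes was near this background. GCLM had the smallest adjusted p, 0.000354, and was high in replicate 3. GPX1 (adjusted p = 0.00518) was highest in replicate 1 and lowest in replicate 3, and GGT7 (adjusted p = 0.00973) was low in replicate 3. The other 6 were not called: GCLC, GSS, SLC7A11, SLC3A2, GSR and GPX4 had adjusted p from 0.0704 to 0.405. Each of the 3 calls needed replicate 3, and that of GPX1 needed replicate 1 as well. Without replicate 3 none of the 10 genes was called, and 432 of 14371 genes were called in all. Leaving out replicate 1 ended the call of GPX1 and added SLC3A2 (adjusted p = 0.0394), and leaving out replicate 2 added SLC7A11 (adjusted p = 0.0245) and GPX4 (adjusted p = 0.0413).

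The direction of the replicate 3 values went with base composition. Relative to the mean of replicates 1 and 2, replicate 3 was higher by 0.40 on the log2 scale for SLC7A11 (35.4% GC in its transcript), 0.31 for GCLM (37.3%) and 0.13 for GCLC (44.3%). GSR, at 48.2% GC, had a difference of -0.01. The genes richer in GC had negative differences: -0.12 for GSS (54.6%), -0.11 for SLC3A2 (57.4%), -0.30 for GGT7 (61.2%), -0.16 for GPX1 (64.2%) and -0.09 for GPX4 (65.2%). Over 10290 nuclear genes in 10 bins of GC, the median difference went from 0.25 in the bin of lowest GC to -0.23 in the bin of highest GC.

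After this trend was removed, the coefficient of variation was lower for 8 of the 9 genes. The trend was fitted to these same libraries, so a fall can be expected of many genes. The share of all genes with a fall was not computed, so the count is not a result about the glutathione genes. That of GCLM went from 13.0% to 3.16%, that of SLC7A11 from 19.9% to 7.90%, and that of GGT7 from 11.4% to 4.22%. GPX4 was the exception, going from 4.13% to 6.89%. Lowest after the removal was that of GSS, 0.269%, while that of GSR was 3.86%. GCLM, GPX1 and GGT7 were then no longer called, and GPX4 was (adjusted p = 0.00776), among 1113 of 13920 genes. The part of GC composition in these differences was not tested beyond this removal.

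**Figure D2:**
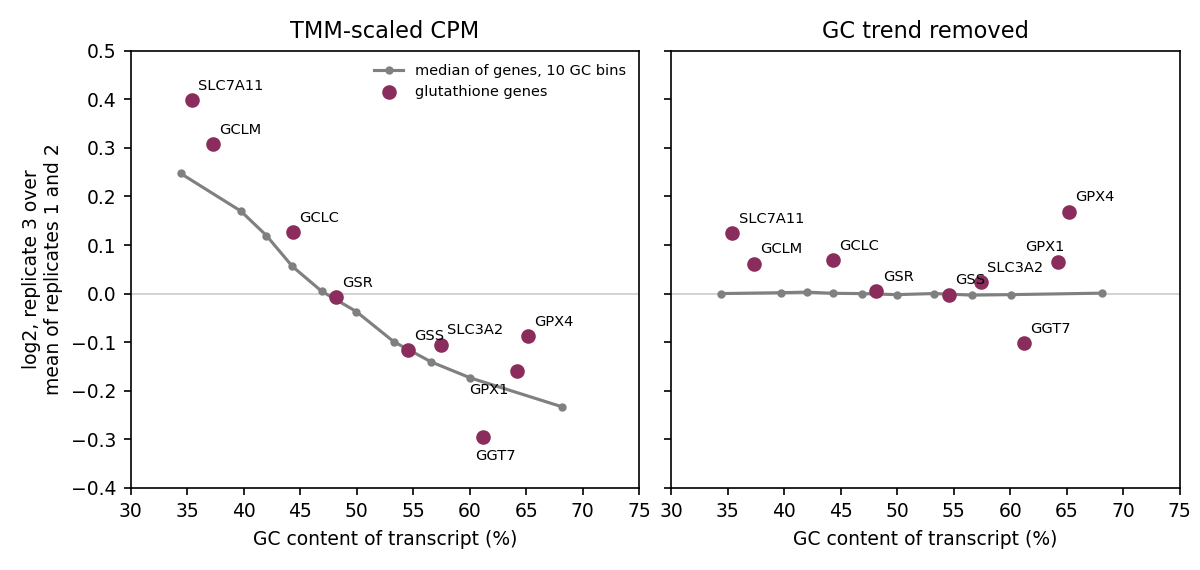
Difference of replicate 3 from the mean of replicates 1 and 2 (log2 of CPM) against the GC content of the transcript, for the 9 genes that passed the count minimum, before (left) and after (right) removal of the GC trend. The grey line is the median over all genes in 10 GC bins. On the left the genes broadly run down with it, from 0.40 for SLC7A11 to -0.30 for GGT7. GGT7 lies below the line, and SLC7A11 and GPX4 lie furthest above it. On the right the largest differences are 0.17 for GPX4, 0.12 for SLC7A11 and -0.10 for GGT7.

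Shares of partner genes within a library need no scaling between libraries. They are shares of raw counts, adjusted neither for transcript length nor for the GC trend. GCLM took 45.4% of the counts of GCLM plus GCLC in replicate 1 (95% Wilson interval 42.8 to 48.1%), 48.0% in replicate 2 (interval 45.4 to 50.6%) and 49.8% in replicate 3 (interval 47.1 to 52.6%). These intervals, which cover counting error only, overlapped in every pair of libraries. SLC7A11 took 4.77% of the counts of SLC7A11 plus SLC3A2 in replicate 1 (interval 3.86 to 5.87%), 5.70% in replicate 2 (interval 4.77 to 6.81%) and 7.28% in replicate 3 (interval 6.04 to 8.76%). Here the interval of replicate 3 lay above that of replicate 1, and that of replicate 2 overlapped both. These 2 genes differ in GC, 35.4% for SLC7A11 and 57.4% for SLC3A2. With the GC trend removed, SLC7A11 had 8.78, 9.94 and 10.2 CPM in replicates 1, 2 and 3, and SLC3A2 148, 161 and 157. The part of GC in the differing shares was not tested. GPX1 took 42.5% of the counts of GPX1 plus GPX4 in replicate 1 (interval 40.9 to 44.1%), 41.8% in replicate 2 (interval 40.2 to 43.4%) and 40.9% in replicate 3 (interval 39.1 to 42.8%). The SD of the share over the libraries was 2.22 percentage points for GCLM, 1.27 for SLC7A11 and 0.779 for GPX1.

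**Figure D3:**
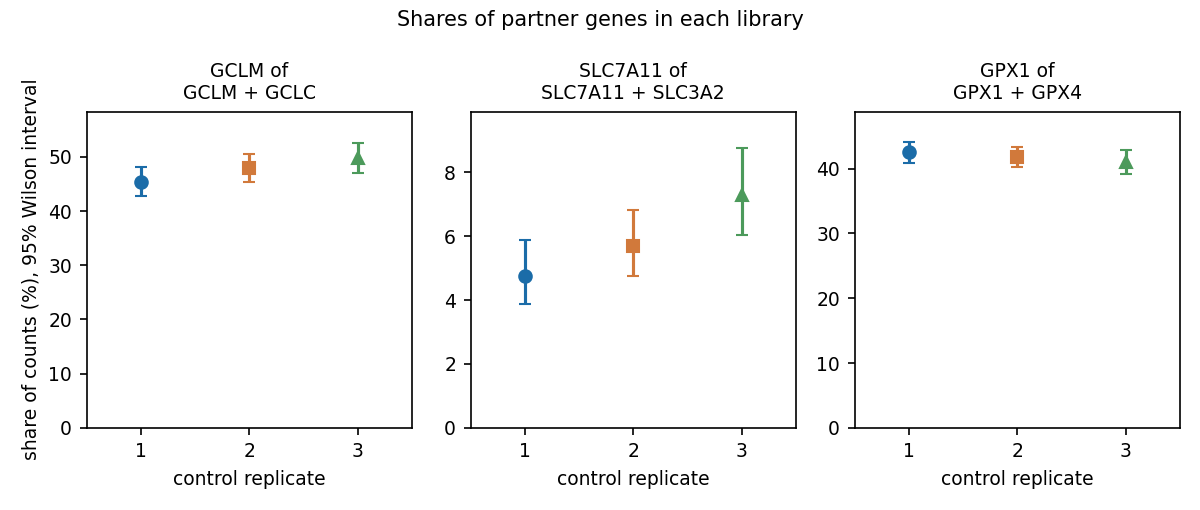
Share of counts (%) taken by the first gene of each pair in each control library, with 95% Wilson intervals for counting error. GCLM holds 45.4 to 49.8% beside GCLC, SLC7A11 4.77 to 7.28% beside SLC3A2, and GPX1 40.9 to 42.5% beside GPX4.

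Around these 10 genes, 53 others were read from lists on glutathione use, breakdown, transport and cysteine supply, and on selenoprotein synthesis and ferroptosis. Of them 42 had at least 10 counts in every library, and their median over all 53 was 8.27 CPM per kb. Among the 5 further peroxidases, GPX3, the secreted plasma enzyme, was highest at 21.2 ± 0.636 CPM per kb (n = 3), and GPX7 stood at 13.8 and GPX8 at 1.22. GPX5 and GPX6 had 0 counts in each library. All 5 lay below both GPX4 and GPX1. The 7 genes of the selenoprotein synthesis list all passed the count minimum. SEPHS1 was highest at 34.3 ± 0.667 CPM per kb, and SEPHS2, which makes the selenophosphate used for selenocysteine, stood at 30.3.

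On the supply side, 7 of 9 genes passed the count minimum. MAT2A, which makes S-adenosylmethionine at the head of the methionine route to cysteine, was highest at 89.5 ± 0.676 CPM per kb. AHCY, which acts further along that route, stood at 86.9 CPM per kb, and the transsulfuration enzymes CBS and CTH at 1.09 and 2.23, all 3 named after their values were seen. CBS has a near-identical annotated copy, so its value is uncertain. SLC7A9 and SLC3A1, the chains of the renal cystine carrier, had at most 5 counts and 1 count in any library.

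Breakdown genes were mixed, with 6 of 11 past the minimum. LAP3, a cytosolic aminopeptidase, was highest at 30.3 ± 0.452 CPM per kb. GGT1, the classical gamma-glutamyltransferase, had 1, 0 and 1 counts, GGT5 had 23, 13 and 7, and GGT6 had none. GGT7 was thus the most abundant of the 4 transferase genes read here. DPEP1 and OPLAH, which are not transferases, had at most 1 and 3 counts in any library. GGT1 has close copies in the genome, and how reads shared with them were counted is not given in the sources used here.

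All 4 glutaredoxin genes passed, led by GLRX3 at 21.7 ± 1.63 CPM per kb, and all 5 genes of the glyoxalase and formaldehyde routes did, led by GLO1 at 79.0 ± 6.76 CPM per kb. In transport, SLC25A39, the mitochondrial glutathione importer, stood at 91.9 ± 4.34 CPM per kb, and its relative SLC25A40 at 7.43. In the ferroptosis list 6 of 8 genes passed. TFRC, the transferrin receptor, was highest at 46.4 ± 1.71 CPM per kb, and ALOX5 and ALOX15, lipoxygenases that oxidise membrane lipids, had at most 1 count in any library. Of the 42 genes past the minimum, 8 were called different between the control libraries, again beside a background of 27.2%.

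**Figure D4:**
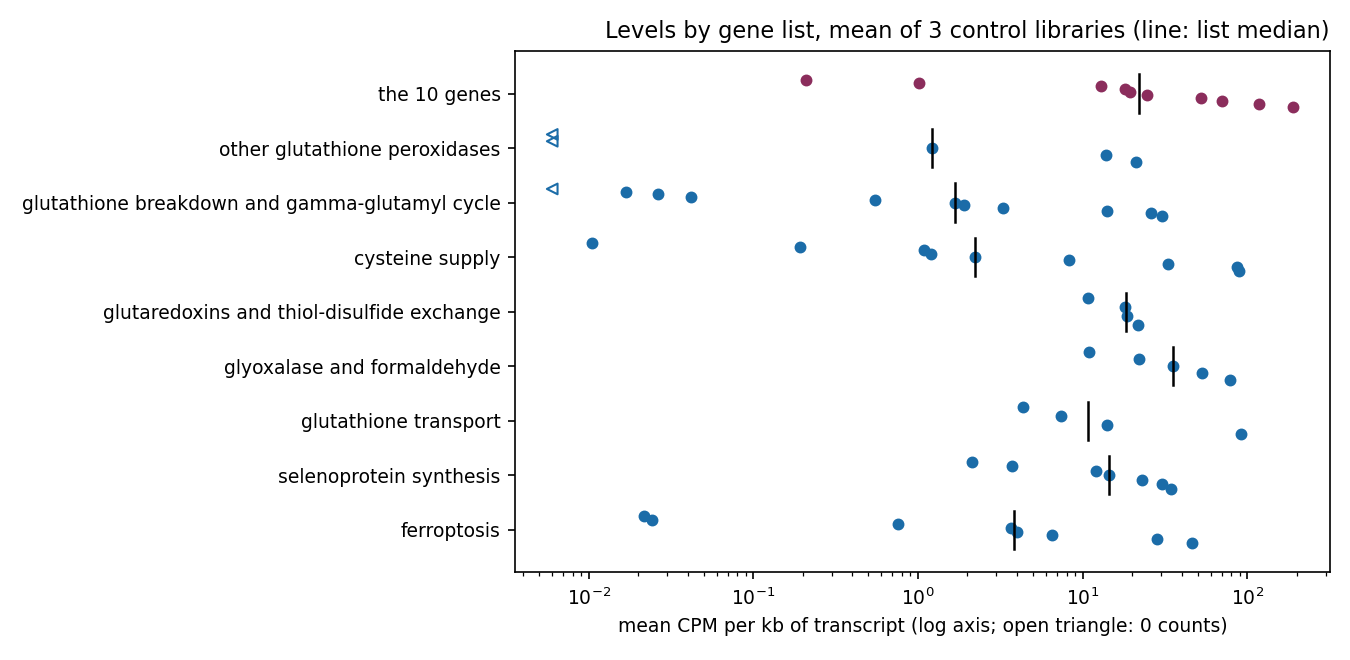
Mean level over 3 control libraries in CPM per kb (log axis) of the 10 genes and of 8 further lists, 1 point per gene, a line at the list median, and an open triangle for 0 counts. The 10 genes have a median of 22.1 CPM per kb, and GPX4 lies above every gene of the other lists, of which SLC25A39 is the highest at 91.9.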

How the data were processed

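Messenger RNA of SH-SY5Y cells was sequenced from a stranded library kit, per the labels. The authors deposited raw counts per Ensembl gene, whole numbers without normalization. The submitters' processing notes name fastp 0.21.1, STAR 2.7.7a, featureCounts and GRCh38. The annotation release, strand setting and handling of shared reads are not given in the sources used here. Without them, reads of overlapping genes may be lost or split: 529 exonic bases of GCLC lie in another gene. The other 3 value columns match no sample and were not used. The members and lists were chosen with earlier results of these data known.

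One gene entry without values and 2 lines naming no gene were left out. Counts were scaled to CPM with TMM factors (edgeR 4.0.16, R 4.3.3). Lengths, GC and positions are from GENCODE release 29 (GRCh38), which shares the versioned identifier of 62.9% of genes, so exon models may differ from the authors'. The GC trend is the median log2 deviation in 50 bins of nuclear genes averaging 100 counts or more. Tests used scipy 1.17.1 in Python 3.11.15 and were tested on simulated data. The planned edgeR test of treated against control could not be run. All 10 genes are described, and from each further list the highest gene and those under 10 counts in each library. GPX7, GPX8, GGT5, SLC25A40, SEPHS2, AHCY, CBS and CTH fall outside this rule and were named after their values were seen. Alternatives were RLE factors, total counts, no mitochondrial genes, GC trend removed, no count filter, other lengths and count minimums, and each library left out. One planned marker gene is not reported here.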

Additional observations from a re-analysis of the deposited data

How the results depend on the processing

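No paired analysis was possible because columns matched the control samples only, and the planned tests of treated against control were not run. The 3 glutathione genes called different between control libraries became 1 with the GC trend removed, and 0 to 5 when 1 library was left out, 0 being without replicate 3. Genes called in all, 3790, became 1113 with the GC trend removed and 432 to 3993 when 1 library was left out; without replicate 1 it was 2313. RLE factors, total counts, no mitochondrial genes and no count filter gave 3224 to 3815 genes and 3 or 4 of the glutathione genes, SLC3A2 (adjusted p = 0.0478) being added with total counts. Of 70 recomputed member levels, 66 moved by no more than the SD between libraries. Leaving out 1 library of 3 moves a mean by less than this SD whatever the values, apart from small changes of scaling. The count of 66 therefore says little about stability. Without 1 library the levels moved by at most 10.2%, with GPX2 left out. The 4 levels that moved by more than the SD (GSS, SLC3A2, GSR and GPX4) did so when mitochondrial genes were left out. That setting lowered the library totals and made all 10 levels higher, by at most 4.98%. The length over the longest transcript of any type, chosen after seeing the data, kept the order of the genes. It differed from the main length only for GPX4, GSS and GPX2, so it tested the order little. The members past the count minimum, 9, became 10 at a minimum of 1, where GPX2 enters. With 2 to 3 counts, GPX2 is beyond what this depth can quantify.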
